A study of Homo sapiens with 34 samples.

Results

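The replication-type histone cluster genes were taken as every symbol of the count files that begins with HIST, a cluster number from 1 to 4 and H, and that had a mean of at least 0.5 CPM (a gene's share of its library's counts, in the usual per-million unit) in any of the 12 groups of a cell line and a treatment. Of 23368 symbols in the files, 73 had such a name and 52 passed the level. The 52 members comprised 4 genes of the linker histone H1, 14 of H2A, 17 of H2B, 10 of H3 and 7 of H4. The H2B members include HIST2H2BC, which GENCODE v29 lists as a transcribed pseudogene. Just inside the level were HIST1H3I with a highest group mean of 0.509 CPM and HIST3H2BB with 0.523 CPM. Just outside were HIST1H1T with 0.489 CPM and HIST1H2BB with 0.338 CPM. The choice was not blind to treatment. Of the 52 members, 32 reached the level in a control group, and 20 reached it in etoposide groups alone, 17 of them only in etoposide-treated 697 cells. Such a member had to be higher with etoposide in that line, so counts of calls and of groups without overlap are given also for the 32 that a control group chose, which can in turn lean toward members high in a control. Of the 21 symbols left out, 9 had no read in any library, among them the near-identical pairs HIST2H2AA3 and HIST2H2AA4, HIST2H3A and HIST2H3C, and HIST2H4A and HIST2H4B.

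Histones H2A, H2B, H3 and H4 form the protein core around which DNA winds to make a nucleosome, and H1 binds the DNA that enters and leaves it. The cluster genes supply the bulk of these proteins while DNA is copied. Their main transcripts carry no poly(A) tail and end instead at a conserved stem-loop, which the stem-loop binding protein SLBP holds. In S phase the coactivator NPAT drives their transcription, and when DNA synthesis stops their messages are degraded quickly. Some of the genes also give longer, polyadenylated transcripts that read past the stem-loop, a form known from differentiated cells and from cells that have left the cycle. Whether the libraries were made from poly(A)-selected RNA is not given in the sources used here, so a read from a cluster gene may come from either form.

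RNA was sequenced from 6 human blood cancer lines, each as a control and after 10 µM etoposide for 4 h. Etoposide holds topoisomerase II on DNA it has cut, so that breaks persist. Both NALM6 and 697 come from pre-B cell leukemia, RAMOS from Burkitt's lymphoma (mature B cells), JURKAT from T cell leukemia, and THP1 and U937 from myeloid leukemia. Each lineage is thus represented by 1 or 2 established lines, grown in RPMI. The 34 libraries fell into 12 groups of 3, except 2 libraries each for 697 etoposide and U937 control. Nothing says that replicates came from separate cultures, so p-values cover the spread among the libraries sequenced, part or all of which may be technical. Library totals ran from 8176143 to 37073010 counts. Each deposited library carries a number in its name that is shared by several libraries. It is taken here as a batch number, though no label says what it stands for. The NALM6 and 697 controls carry one number and their etoposide libraries another, so batch and treatment cannot be told apart in these 2 lines. Each other line carries 1 number. Each of 4 lineage marker lists was highest in its labelled lines. Summed control means were 5511 CPM for 8 pre-B markers in NALM6 and 4159 CPM in 697, and 2077 CPM for 5 mature B markers in RAMOS. They were 2455 CPM for 7 T cell markers in JURKAT, and 2637 and 4186 CPM for 8 myeloid markers in THP1 and U937. The lists were not exclusive. Pre-B markers summed to 1700 CPM in RAMOS and 286 CPM in JURKAT controls, and mature B markers to 432 and 388 CPM in NALM6 and 697. A list of 4 NK cell markers summed to 266 CPM in U937.

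The stem-loop is the element that the 2 transcript forms treat differently, so it is shown for members whose GENCODE v29 model on GRCh38 runs past it and for others that the results turn on. The sequences below are printed 5′ to 3′ as DNA on the gene's strand, with the 16 bases of the stem-loop in capitals and 5 flanking bases on each side. 
HIST2H2BE: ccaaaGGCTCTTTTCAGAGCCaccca
HIST2H2BF: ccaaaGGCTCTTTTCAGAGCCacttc
HIST1H2AC: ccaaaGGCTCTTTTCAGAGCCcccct
HIST1H2BG: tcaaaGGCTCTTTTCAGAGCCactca
HIST1H2AG: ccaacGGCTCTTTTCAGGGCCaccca
HIST1H4E: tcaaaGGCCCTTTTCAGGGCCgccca
HIST4H4: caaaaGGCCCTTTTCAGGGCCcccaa
The H2B model of HIST2H2BE (chr1:149884459-149886652, minus strand), runs 1729 bases past its stem-loop, and HIST2H2BF (chr1:149782689-149812373, minus strand) runs 1479 bases past. HIST1H2AC runs 1114 bases past, HIST1H2BG 1059, HIST1H2AG 1761 and HIST1H4E (chr6:26204552-26206038, plus strand) 1022. A stem-loop of these letters was found in the models of 18 members, in 3 forms: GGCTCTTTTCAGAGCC in 13 members of H2A, H2B and H3, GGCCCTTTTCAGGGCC in the H4 members HIST1H4E, HIST1H4H and HIST4H4, and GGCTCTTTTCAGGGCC in HIST1H2AG and HIST2H2BC. The models of 25 members hold under 50 noncoding bases, so their stem-loop could not be looked for. The files are on hg19 and give symbols only, so these GRCh38 positions were matched by name, which found all 52 members, 44 on chromosome 6, 7 on chromosome 1 and 1 on chromosome 12.

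The promoters of 3 members that head the results below are shown as the 150 bases before the RefSeq start on GRCh38.p14, on the gene's strand. Capitals mark the octamer ATTTGCAT, which binds the factors OCT1 and OCT2, the CCAAT box and the TATA box searched as TATAAA, each on either strand. HIST2H2BE is chr1:149886683-149886832 on the minus strand, HIST2H2BF is chr1:149812371-149812520 on the minus strand and HIST1H1E is chr6:26156179-26156328 on the plus strand. 
HIST2H2BE: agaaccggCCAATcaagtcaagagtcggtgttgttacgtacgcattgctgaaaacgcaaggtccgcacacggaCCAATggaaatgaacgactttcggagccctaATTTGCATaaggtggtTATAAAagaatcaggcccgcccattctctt
HIST2H2BF: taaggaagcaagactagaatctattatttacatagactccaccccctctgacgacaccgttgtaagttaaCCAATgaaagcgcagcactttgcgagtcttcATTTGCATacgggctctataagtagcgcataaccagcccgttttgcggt
HIST1H1E: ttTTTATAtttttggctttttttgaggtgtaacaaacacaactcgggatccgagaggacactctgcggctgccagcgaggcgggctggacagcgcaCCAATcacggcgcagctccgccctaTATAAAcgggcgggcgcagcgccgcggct
Of the 52 members, 38 had a promoter entry in the RefSeq table. Within 250 bases before the start, the octamer lay in 16 of these 38, against 1.63% of 35116 promoters of all genes. It was in 10 of 13 H2A promoters and 6 of 9 H2B promoters, and these letters were in none of the H1, H3 and H4 promoters. A CCAAT box lay in 33 of 38, against 32.0% of all promoters, and a TATAAA box in 23 of 38, against 10.7%.

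Before treatment the lines differed in how much of each member they held. On a scale shared by all libraries, HIST1H1C, a somatic linker histone gene, stood at 72.3 CPM ± 1.22 (SD, n = 2) in U937 controls and at 25.3 CPM ± 2.93 (n = 3) in 697 controls. Its control means were 11 CPM in THP1, 6.38 CPM in JURKAT, 3.46 CPM in RAMOS and 2.76 CPM in NALM6, and the ranges of RAMOS and NALM6 overlapped. HIST1H2BK, an H2B gene, was highest in 697 at 78.0 CPM ± 2.75 (n = 3), followed by U937 at 33.5 CPM ± 0.917 (n = 2), and lowest in JURKAT at 3.98 CPM ± 0.771 (n = 3). HIST2H2BE stood at 10.6 CPM ± 1.16 (n = 3) in 697. It was at 5.42 CPM in JURKAT and 5.38 CPM in THP1, whose ranges overlapped, at 3.49 CPM in U937, at 1.54 CPM in NALM6 and at 0.647 CPM ± 0.332 (n = 3) in RAMOS. All other values below are CPM scaled within a line.

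**Figure D1:**
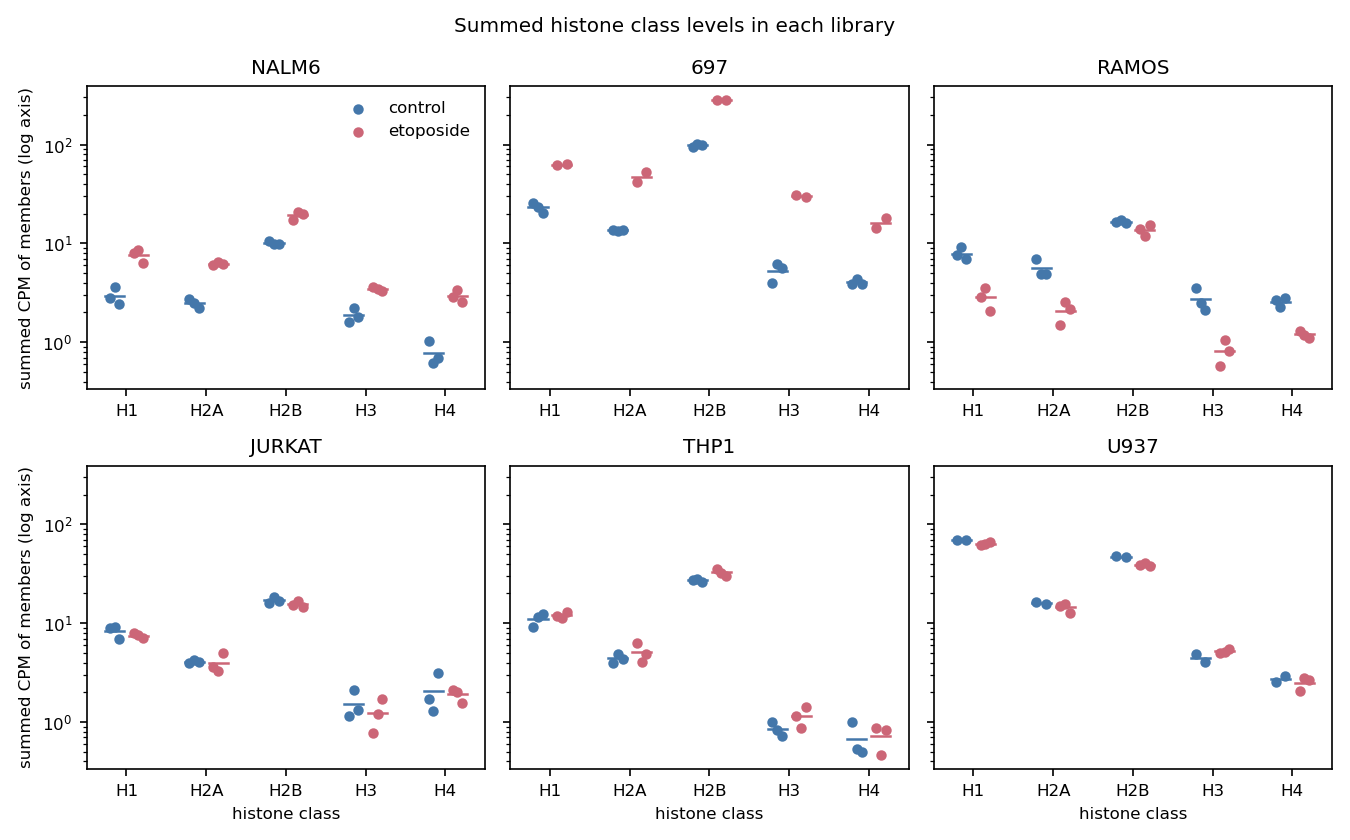
Summed CPM of the members of each histone class in each library (log axis), with control libraries in blue, etoposide libraries in red and group means as bars. In NALM6 and 697 every etoposide library lies above every control in all 5 classes, and in RAMOS every one lies below.

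In 697 cells, reads of the cluster genes were higher with etoposide across all 5 classes. The 52 members together summed to 141, 148 and 142 CPM in controls and to 432 and 446 CPM with etoposide, a 3.05-fold higher mean. For the 32 members chosen by a control group the mean sum was 2.98-fold higher. In these bulk samples a change in the number of cells of a type or cycle phase and a change in RNA per cell cannot be told apart. H3 genes summed to 4.01, 6.19 and 5.63 CPM in controls and 30.5 and 29.1 CPM with etoposide, 5.65-fold higher. The mean sum was 3.97-fold higher for H4, 3.48-fold for H2A, 2.89-fold for H2B and 2.71-fold for H1. Class sums in every line run over all 52 members and were not repeated for the 32, so the choice can raise them here and in NALM6. H1 was nearly all HIST1H1C, which gave 97.2% of the H1 sum in controls. In edgeR's quasi-likelihood test 46 members could be tested, 41 rose, none fell (0 also at an unadjusted p under 0.05 and by DESeq2), and 5 did not pass. Among all 13439 genes tested in 697, 39.4% rose and 36.9% fell. The median log2 change was 2.22 over the 46 members and 0.05 over all genes, and the choice of members through etoposide-treated 697 raises the first. Of the 32 members chosen by a control group, 30 were tested, 28 rose and 0 fell, with a median of 2.21. Among the 46 members tested, every etoposide library lay above every control for 44 and below for 0, against 43.1% and 40.4% of all genes tested. With untested ones included, every etoposide library lay above every control for 46 of the 52 members and below for 0. For 17 of these members the choice itself had fixed a high etoposide level, and among the 32 the counts were 29 and 0.

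HIST2H2BF and HIST2H2BE, H2B genes of the chromosome 1 cluster, stood out in both pre-B lines. In 697, HIST2H2BF read 0.191, 0.124 and 0.266 CPM in controls and 7.81 and 7.61 CPM with etoposide, so that all etoposide libraries lay far above all controls. Its log2 change was 5.22 (SE 0.31, adjusted p = 1.41e-10). HIST2H2BE read 8.69, 8.98 and 10.5 CPM in controls and 70.9 and 73.5 CPM with etoposide, again without overlap, with a log2 change of 2.94 (SE 0.09, adjusted p = 3.1e-14). The H4 gene HIST4H4, on chromosome 12, rested on 4 control reads and 40 etoposide reads. It read 0, 0.186 and 0.0443 CPM in controls and 0.873 and 1.38 CPM with etoposide, a log2 change of 3.90 (SE 0.73, adjusted p = 0.000135). The H3 gene HIST1H3D read 0.287, 0.867 and 0.930 CPM in controls and 11.1 and 8.99 CPM with etoposide. Its log2 change was 3.87 (SE 0.29, adjusted p = 5.62e-09), and it held 34.3% of the H3 sum with etoposide against 13.2% in controls.

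Among the linker histones of 697, HIST1H1E read 0.191, 0.248 and 0.222 CPM in controls and 2.40 and 2.21 CPM with etoposide, a log2 change of 3.37 (SE 0.43, adjusted p = 1.97e-06). HIST1H1D rose by 3.07 (SE 0.47), HIST1H1B by 2.51 (SE 0.62) and HIST1H1C by 1.34 (SE 0.09) on the log2 scale. Since HIST1H1D reached the 0.5 CPM level in no control group, the choice favoured its rise here. Among the H2A genes of 697, HIST1H2AC read 8.41, 6.99 and 8.46 CPM in controls and 19.8 and 24.6 CPM with etoposide, a log2 change of 1.46 (SE 0.13, adjusted p = 3.01e-08). HIST1H2AE read 1.96, 1.55 and 1.59 CPM and then 7.37 and 9.27 CPM, a log2 change of 2.27 (SE 0.21, adjusted p = 4.16e-08). Both were without overlap, and so was the H4 gene HIST1H4H, which read 1.72, 1.3 and 1.64 CPM in controls and 4.76 and 4.29 CPM with etoposide, a log2 change of 1.53 (SE 0.25, adjusted p = 2.77e-05). HIST1H4E, shown above with its stem-loop, read 0.382, 0.248 and 0.310 CPM and then 2.27 and 3.53 CPM, a log2 change of 3.14 (SE 0.41, adjusted p = 2.57e-06).

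The least changed of the highly read members in 697 was HIST1H2BK. It read 66.8, 71.0 and 70.3 CPM in controls and 112 and 101 CPM with etoposide, a log2 change of 0.61 (SE 0.07, adjusted p = 3.07e-07), and its share of the H2B sum was 71.0% in controls and 37.9% with etoposide. HIST1H2AH, HIST1H2AJ, HIST1H2BL, HIST1H3F and HIST1H4K were the 5 tested members that did not pass. HIST1H2AH, an H2A gene, read 0.287 to 0.619 CPM in controls and 0.524 and 0.692 CPM with etoposide, so the groups overlapped.

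In NALM6, the other pre-B line, the direction was the same at a lower read level. The members summed to 18.7, 18.8 and 17 CPM in controls and to 37.7, 42.5 and 38.3 CPM with etoposide, a 2.17-fold higher mean with no overlap. For the 32 chosen by a control group the mean sum was 2.12-fold higher. By class the mean sums were 3.74-fold higher for H4, 2.59-fold for H1, 2.51-fold for H2A, 1.91-fold for H2B and 1.86-fold for H3. Of 11 members tested, 9 rose, none fell (0 also at an unadjusted p under 0.05 and by DESeq2) and 2 did not pass, beside 41.3% of all 12589 genes that rose and 40.3% that fell. The median log2 change was 1.41 over the 11 members and 0.01 over all genes. All 9 that rose were among the 32 chosen by a control group, and all 9 also rose in 697. Among the 11 members tested, every etoposide library lay above every control for 9 and below for 0, against 41.5% and 40.2% of all genes tested. Over all 52 members, untested ones included, the counts were 20 and 0, and among the 32 they were 16 and 0.

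HIST2H2BE in NALM6 read 1.88, 1.3 and 1.39 CPM in controls and 5.94, 7.02 and 7.03 CPM with etoposide, a log2 change of 2.19 (SE 0.22, adjusted p = 2.94e-12). HIST2H2BF had 2 reads in the controls and 43 with etoposide, a ratio of 26.3 with a 95% counting interval of 6.86 to 224. The H4 gene HIST1H4E read 0.282, 0.0619 and 0.209 CPM in controls and 0.728, 1.15 and 0.725 CPM with etoposide, a log2 change of 2.56 (SE 0.59, adjusted p = 0.000132). HIST1H1C read 2.73, 3.25 and 2.15 CPM in controls and 6.73, 6.77 and 5.22 CPM with etoposide, a log2 change of 1.16 (SE 0.20, adjusted p = 1.15e-06). HIST1H2BK, the member with the most reads in NALM6 controls, had overlapping groups, with 6.77, 6.62 and 6.19 CPM in controls and 5.46, 7.44 and 6.89 CPM with etoposide. Its log2 change was 0.01 (SE 0.16, adjusted p = 0.944).

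**Figure D2:**
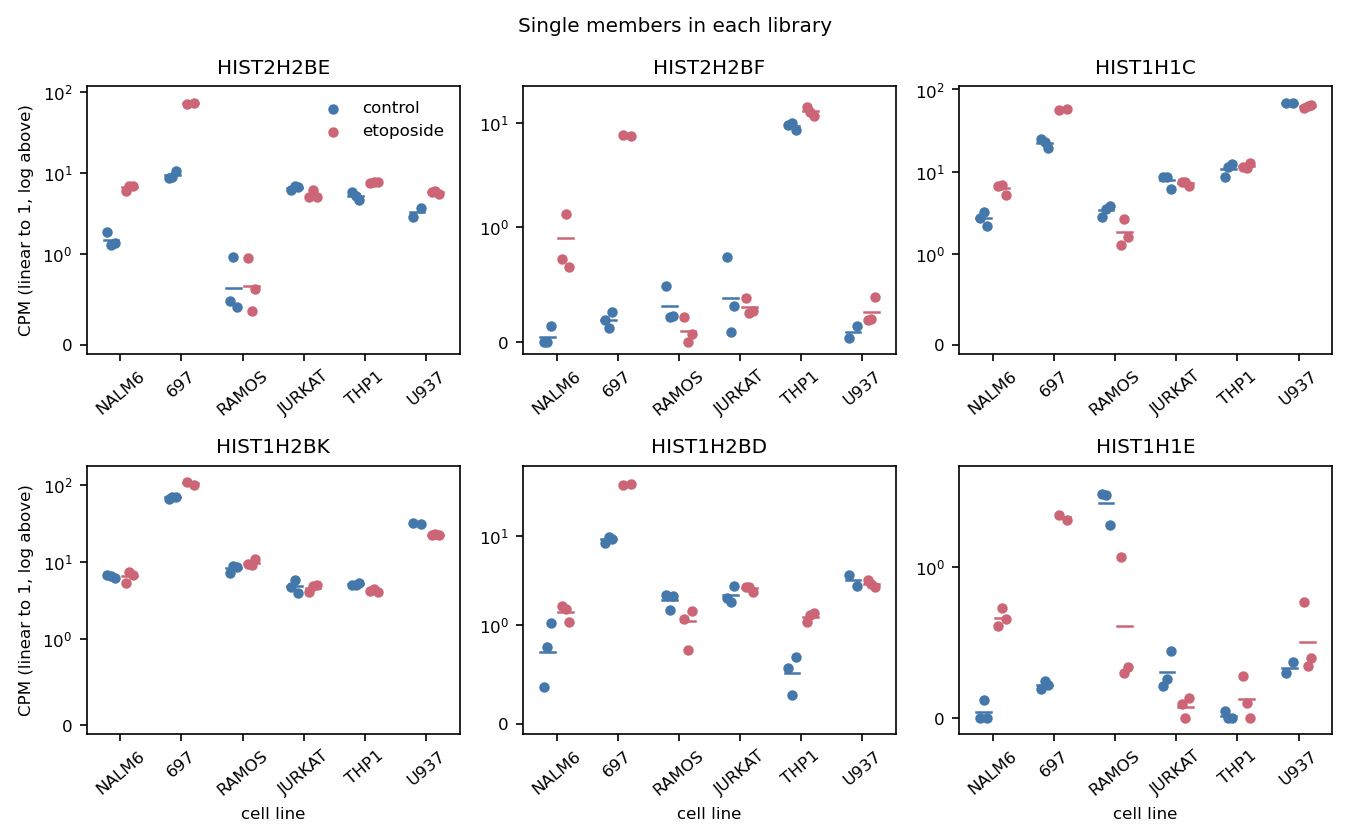
CPM of 6 members in each library by cell line (axis linear to 1 CPM and logarithmic above), controls in blue and etoposide in red, with bars at group means. HIST2H2BE and HIST2H2BF rise in both pre-B lines, HIST1H2BK overlaps in NALM6, and HIST1H1E is higher in 697 and lower in RAMOS with etoposide.

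Sums of some small RNA genes outside the histone clusters were also higher with etoposide in the pre-B lines. Their mature RNAs carry no poly(A) tail, but which form gave their reads, or those of the members, is not known. The 24 small Cajal body RNA genes (SCARNA) were looked at after values had been seen. They summed to 5.62 CPM ± 0.0710 (n = 3) in NALM6 controls and 22.9 CPM ± 0.615 (n = 3) with etoposide. In 697 they summed to 5.38 CPM ± 0.602 (n = 3) and 20.7 CPM ± 0.224 (n = 2). In the other lines the control and etoposide means were 16.3 and 19.8 CPM in RAMOS, 17.8 and 15.3 CPM in JURKAT, 5.31 and 6.45 CPM in THP1, and 7.78 and 6.48 CPM in U937. A further 7 spliceosomal RNA genes were also picked after values had been seen, and their reads were few. They summed to 0.0103 and 1.36 CPM in NALM6 and to 0.198 and 2.06 CPM in 697. Their sums were 0.299 and 0.162 CPM in RAMOS and 0.343 and 0.431 CPM in JURKAT. In THP1 they were 0.525 and 0.291 CPM, and in U937 0.227 and 0.255 CPM. Genes with a count also moved, from between 13917 and 14978 to between 15908 and 16132 in NALM6, and from between 14355 and 14738 to between 16408 and 17097 in 697. Batch number and treatment cannot be told apart for these pre-B values either. JURKAT controls, which carry the batch number of the treated pre-B libraries, had a mean of 16851 genes with a count. The means were 16678 in THP1 and 15708 in U937 controls, which share another batch number, and 14986 in RAMOS controls, which carry a further one. The part of these RNAs and of gene detection in the histone result was not tested. Lineage markers moved as well. The sum of 8 pre-B markers went from 5511 to 2073 CPM in NALM6, where 7 fell, and from 4159 to 1428 CPM in 697, where 8 fell. The mature B sum went from 432 to 239 CPM in NALM6 and from 388 to 185 CPM in 697, and the T cell sum from 17.2 to 6.87 CPM and from 35.6 to 11.2 CPM. Of the myeloid markers, 3 of 8 rose and 1 fell in each pre-B line, and their sum went from between 7.98 and 8.56 CPM to between 20.7 and 22.5 CPM in NALM6 and from between 5.20 and 6.82 CPM to between 75.0 and 80.8 CPM in 697, mostly through the integrin gene ITGAM. The neutrophil elastase gene ELANE was at 0 in all libraries of both lines, and the part of these markers in the histone result was not tested.

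**Figure D3:**
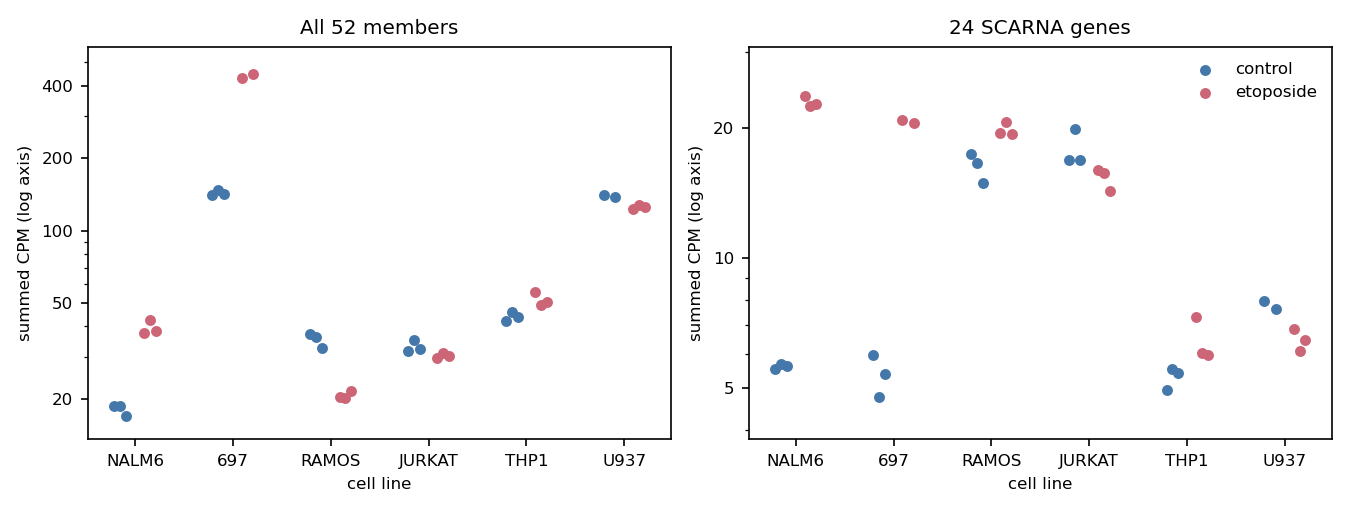
Summed CPM of all 52 members (left) and of 24 SCARNA genes (right) in each library, both on a log axis, controls in blue and etoposide in red. In NALM6 and 697 both sums are higher in every etoposide library, and in RAMOS the member sum is lower while the SCARNA sum is not.

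RAMOS went the other way. The members summed to 37.1, 36.1 and 32.6 CPM in controls and to 20.3, 20.1 and 21.6 CPM with etoposide, 0.586 times the control mean with no overlap. For the 32 chosen by a control group the ratio was 0.625. H3 genes summed to 3.54, 2.52 and 2.11 CPM in controls and 0.568, 1.04 and 0.821 CPM with etoposide, 0.297 times the control mean. The mean sum was 0.361 times the control for H1, 0.371 for H2A, 0.465 for H4 and 0.832 for H2B, whose largest member HIST1H2BK did not fall. Of 9 members tested, 7 fell, none rose (0 also at an unadjusted p under 0.05 and by DESeq2) and 2 did not pass, beside 35.5% of all 12240 genes that fell and 34.2% that rose. The median log2 change was -1.31 over the 9 members and 0.00 over all genes. All 7 were chosen by a control group. Among the 9 members tested, every etoposide library lay below every control for 7 and above for 1, against 36.1% and 35.0% of all genes tested. Over all 52 members, untested ones included, the counts were 23 and 1, and among the 32 they were 16 and 1. Leaving out RAMOS control 3 gave 4 that fell of 7 tested. Leaving out etoposide 2 gave 12 of 19 tested, and leaving out etoposide 3 gave 13 of 18. The filter on low counts was run anew in each of these fits, so the number tested changed as well. Shares of all genes that fell were not taken for them.

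All 3 linker histones tested in RAMOS fell. HIST1H1B read 0.977, 2.08 and 1.06 CPM in controls and 0.393, 0.447 and 0.0684 CPM with etoposide, a log2 change of -2.19 (SE 0.45, adjusted p = 2.7e-05). HIST1H1E read 3.42, 3.36 and 2.02 CPM in controls and 1.18, 0.298 and 0.342 CPM with etoposide, a log2 change of -2.04 (SE 0.34, adjusted p = 7.39e-07). HIST1H1C read 2.81, 3.49 and 3.76 CPM in controls and 1.27, 2.61 and 1.57 CPM with etoposide, a log2 change of -0.98 (SE 0.25, adjusted p = 0.000545). All 3 had no overlap between groups. Among core histones, the H2A gene HIST1H2AM fell by 1.81 (SE 0.50), the H2B gene HIST1H2BJ fell by 1.64 (SE 0.48), and HIST1H2BC and HIST1H2BD fell as well. Of the 50-base windows of HIST1H2AM, 86.3% also lie in models of other genes, among them HIST1H3J, whose span overlaps it on the same strand, so its reads are uncertain. HIST1H2BK read 7.33, 8.98 and 8.77 CPM in controls and 9.44, 9.31 and 11 CPM with etoposide. Its groups did not overlap, being higher with etoposide, but it did not pass (log2 change 0.21, SE 0.12, adjusted p = 0.13). HIST2H2BE overlapped, at 0.489, 0.973 and 0.413 CPM in controls and 0.962, 0.372 and 0.616 CPM with etoposide, with a log2 change of 0.07 (SE 0.44, adjusted p = 0.89).

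In JURKAT no member passed. Of 9 tested, 0 rose and 0 fell in edgeR's test, and DESeq2 gave an adjusted p for 3 of them and called 0. At an unadjusted p under 0.05 there was 1, which was lower. Among all 13914 genes tested, 6.71% rose and 6.27% fell. The member sum was 31.7, 35.3 and 32.2 CPM in controls and 29.6, 30.9 and 30.0 CPM with etoposide, 0.913 times the control mean, and these narrow ranges did not overlap. Among the 9 members tested, 0 had every etoposide library above every control and 1 below, against 15% and 15.3% of all genes tested. Over all 52 members, untested ones included, the counts were 0 and 3, and among the 32 they were 0 and 2. HIST1H1C read 8.67, 8.60 and 6.19 CPM in controls and 7.53, 7.46 and 6.73 CPM with etoposide, a log2 change of -0.09 (SE 0.16, adjusted p = 0.792). HIST2H2BE read 6.13, 6.95 and 6.82 CPM in controls and 5.07, 6.13 and 5.10 CPM with etoposide, a log2 change of -0.30 (SE 0.17, adjusted p = 0.271).

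In the myeloid lines few members passed, and the sums moved little. The members summed to 42.3, 46.0 and 43.9 CPM in THP1 controls and 55.7, 49.3 and 50.3 CPM with etoposide, 1.17 times the control mean with no overlap. In THP1, 3 of 11 members tested rose, all H2B, and none fell (0 also at an unadjusted p under 0.05 and by DESeq2), beside 14% of all 13983 genes that rose and 17% that fell. Among the 11 members tested, 3 had every etoposide library above every control and 1 below, against 19.9% and 21.8% of all genes tested. Over all 52 members, untested ones included, the counts were 4 and 3, and among the 32 they were 3 and 2. All 3 calls were among the 32. HIST1H2BD read 0.567, 0.289 and 0.678 CPM in controls and 1.07, 1.28 and 1.36 CPM with etoposide, a log2 change of 1.27 (SE 0.40, adjusted p = 0.0121). HIST2H2BE read 5.81, 5.29 and 4.66 CPM in controls and 7.52, 7.78 and 7.71 CPM with etoposide, a log2 change of 0.55 (SE 0.14, adjusted p = 0.00323). HIST2H2BF read 9.73, 10.0 and 8.63 CPM in controls and 14.4, 13 and 11.9 CPM with etoposide, a log2 change of 0.47 (SE 0.12, adjusted p = 0.00158). None of these groups overlapped. HIST2H2BF was the largest member of THP1, with 21.5% of the member sum in controls, while in U937 controls it had 4 reads in all.

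In U937 the members summed to 141 and 138 CPM in controls and 123, 127 and 125 CPM with etoposide, 0.895 times the control mean with no overlap. There 2 of 27 members tested rose and 3 fell, beside 22.1% of all 13235 genes that rose and 22.1% that fell. Among the 27 members tested, 5 had every etoposide library above every control and 6 below, against 31.7% and 31.2% of all genes tested. Over all 52 members, untested ones included, the counts were 9 and 9, and among the 32 they were 6 and 7. All 5 calls were among the 32. HIST2H2BE read 2.87 and 3.74 CPM in controls and 5.87, 5.99 and 5.48 CPM with etoposide, a log2 change of 0.82 (SE 0.18, adjusted p = 0.000404). The H3 gene HIST1H3H read 1.68 and 1.76 CPM in controls and 2.22, 2.51 and 3.18 CPM with etoposide, a log2 change of 0.63 (SE 0.26, adjusted p = 0.0461). HIST1H2BK read 32.2 and 31.3 CPM in controls and 22.4, 23.5 and 22.9 CPM with etoposide, a log2 change of -0.47 (SE 0.08, adjusted p = 2.76e-05). The H2A gene HIST1H2AC fell by 0.41 (SE 0.14) and the H2B gene HIST1H2BL by 0.90 (SE 0.36). HIST1H1C, which gave 49.0% of the member sum in U937 controls, read 68.9 and 68.1 CPM there and 59.9, 62.1 and 65.3 CPM with etoposide, a log2 change of -0.13 (SE 0.06, adjusted p = 0.0952). The 2 calls upward became 1 by DESeq2, with a replicate block, with either control left out, and without etoposide replicate 2 or 3. The 3 calls downward became 1 without control 1.

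**Figure D4:**
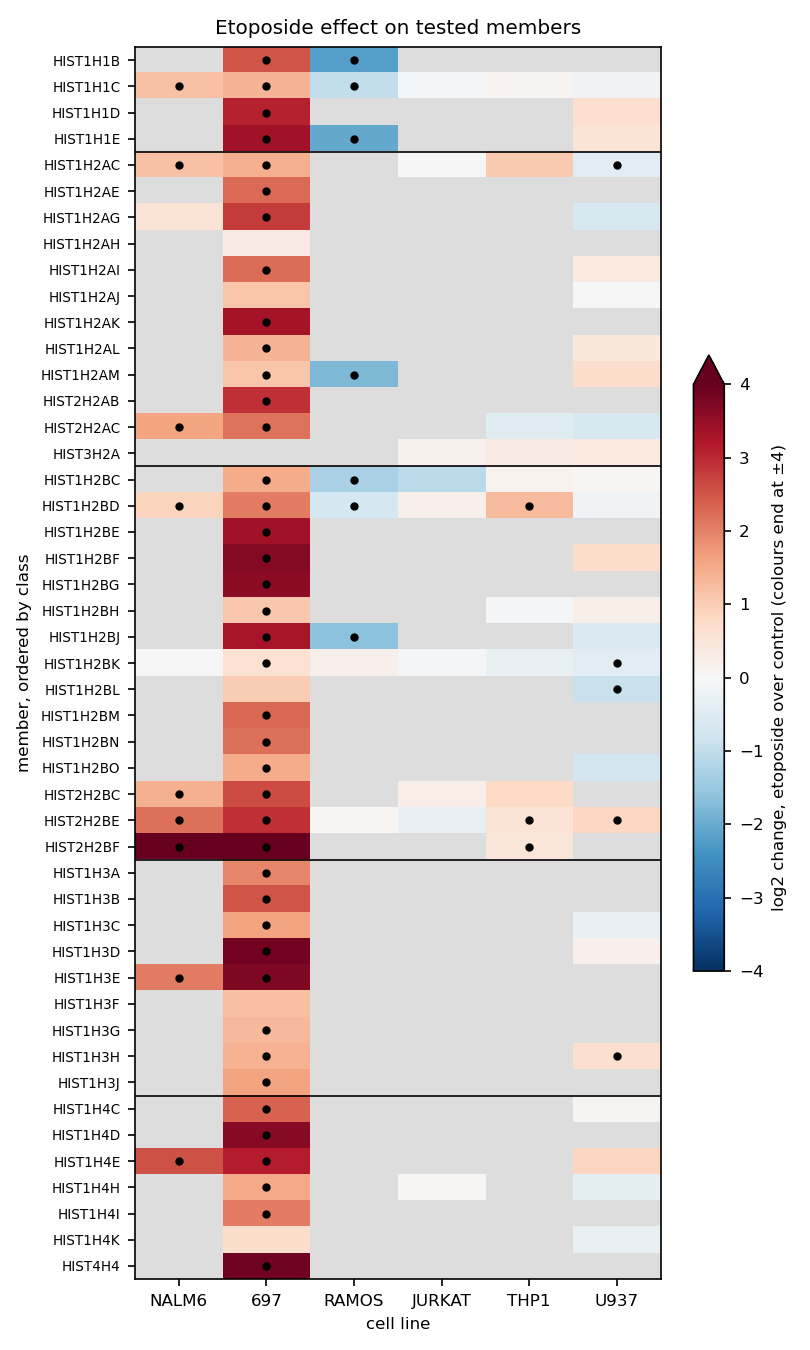
Log2 change with etoposide for the 47 members tested in at least 1 line, ordered by class, in each line. Red is higher and blue lower with etoposide, grey was not tested, and a dot marks a call at an adjusted p under 0.05. Calls in the pre-B lines are all red and calls in RAMOS all blue.

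Across the lines, 47 members were tested in at least 1 line and 4 in all 6, namely HIST1H1C, HIST1H2BD, HIST1H2BK and HIST2H2BE. The heatmap of changes shows 41 members that rose in at least 1 line and 10 that fell in at least 1. The 41 are those that rose in 697, which the choice of members favoured. A rise in one line and a fall in another was found for 9 members. The shares of all genes that did the same over the lines were not taken, so these counts are a description only. They were not repeated for the 32 either. HIST1H1E was one of the 9, with log2 changes of 3.37 in 697 and -2.04 in RAMOS. HIST2H2BE rose in 4 lines and fell in none, at -0.30 in JURKAT and 0.07 in RAMOS.

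The difference of the etoposide effect between lines was tested in 1 edgeR fit of all 34 libraries, in which 49 members were tested. Between the pre-B lines and the 4 other lines, 27 members had a higher effect in the pre-B lines and 0 a lower one (0 at an unadjusted p under 0.05; no other tool was run on this fit), beside 30.7% and 28.1% of all 17008 genes. The 27 comprised 4 of 4 H1, 6 of 13 H2A, 11 of 16 H2B, 3 of 9 H3 and 3 of 7 H4 members. Of the 32 members chosen by a control group, 19 were higher and 0 lower. HIST2H2BF differed by 4.63 on the log2 scale (SE 0.64, adjusted p = 2.78e-09) and HIST1H1D by 3.63 (SE 0.78, adjusted p = 4.64e-05). HIST1H1D had 4 reads in JURKAT controls and 0 with etoposide, so its difference depends on the prior count and is no measure of size. This gene, counted among the 4 H1 members, also reached the 0.5 CPM level in no control group and stood highest in etoposide-treated 697. The choice thus favoured a higher effect there. With NALM6 alone in place of both pre-B lines 13 members were higher. With JURKAT as the only other line 17 were, and JURKAT libraries share the batch number of the treated pre-B libraries. For these added contrasts the shares of all genes and the counts among the 32 were not taken, so the 13 and 17 have no background beside them.

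Between 697 and NALM6, 7 members had a higher effect in 697 and 1 a lower one, beside 16.1% and 15.1% of all genes, and among the 32 the counts were 6 and 0. HIST1H3D differed by 3.05 (SE 0.86, adjusted p = 0.00386) and HIST1H2AG by 2.22 (SE 0.64, adjusted p = 0.00471). HIST1H2AG read 0.188, 0.712 and 0.139 CPM in NALM6 controls and 0.546, 0.726 and 0.725 CPM with etoposide, and in 697 it read 0.907, 0.928 and 0.753 CPM and then 4.97 and 7.05 CPM. The 7 became 4 without NALM6 control 2, and the 1 became 0 without NALM6 etoposide 3 or 697 etoposide 1. Between RAMOS and JURKAT, 4 members had a lower effect in RAMOS and 0 a higher one (0 at an unadjusted p under 0.05), beside 18.9% and 16.9% of all genes, and among the 32 the counts were 4 and 0. HIST1H1C differed by -0.95 (SE 0.27, adjusted p = 0.00347). The 4 became 2 without RAMOS etoposide 1.

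Between the 2 myeloid lines, 2 members had a higher effect in THP1 and 2 a lower one, beside 5.96% and 7.07% of all genes, and among the 32 the counts were 2 and 0. HIST1H2BD differed by 1.42 (SE 0.38, adjusted p = 0.00753) and HIST1H2AC by 1.47 (SE 0.40, adjusted p = 0.0084). The 2 lower ones, HIST1H2BE and HIST1H2BM, rest on at most 10 reads in any of these groups. They became 0 without THP1 control 1 or 2, any THP1 etoposide library or either U937 control. They became 1 without any U937 etoposide library, NALM6 etoposide 3, 697 control 2, 697 etoposide 2, RAMOS control 1 or RAMOS etoposide 3. The 2 higher ones became 1 without THP1 control 1 or 2, THP1 etoposide 1 or U937 control 1. Between the myeloid lines and the pair RAMOS and JURKAT, 12 members had a higher effect in the myeloid lines and 1 a lower one, beside 12.4% and 9.47% of all genes, and among the 32 the counts were 9 and 1. HIST1H2BK differed by -0.45 (SE 0.13, adjusted p = 0.0059). HIST1H1E differed by 3.69 (SE 0.84, adjusted p = 0.000473), which rests in part on 1 read in THP1 controls against 9 with etoposide, and on 12 against 4 in JURKAT.

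The members were also split by features that the choice did not use. In 697, the 18 members with a GENCODE model of 1000 bases or more, such as HIST2H2BE, HIST2H2BF and HIST1H4E, summed to 29.5 CPM in controls and 168 CPM with etoposide. The other 34 summed to 114 and 271 CPM. Among the 32 chosen by a control group, 13 had a long model and 19 did not, with ratios of etoposide to control sums of 5.61 and 2.30, and 3.59 for the second without HIST1H2BK. In RAMOS the first 18 summed to 6.20 CPM in controls and 3.19 CPM with etoposide, and the other 34 to 29.1 and 17.5 CPM. Without HIST1H2BK the other members of RAMOS had a ratio of 0.365, against 0.514 for the long models. Only 1 long-model member could be tested in RAMOS and did not pass, while 7 of 8 others fell. This is a description with no test. By the octamer, in 697 the median log2 change was 2.22 over 14 tested members with it and 2.12 over 20 without.

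H2A and H2B genes often lie head to head and share the stretch between their starts, and 11 such pairs were found among the members. Both genes were tested in 4 lines for 2 pairs. HIST2H2AC and HIST2H2BE, whose starts lie 323 bases apart on chromosome 1, both rose in NALM6, by 1.56 (SE 0.43) and 2.19 (SE 0.22), and in 697, by 2.17 (SE 0.44) and 2.94 (SE 0.09) on the log2 scale. In THP1 HIST2H2AC was at -0.48 (SE 0.32, adjusted p = 0.282) while HIST2H2BE rose by 0.55. In U937 it was at -0.65 (SE 0.39, adjusted p = 0.184) while HIST2H2BE rose by 0.82. Copies share 30.5% of the 50-base windows of HIST2H2AC. HIST1H2AC and HIST1H2BC, 219 bases apart on chromosome 6, rose in 697 by 1.46 (SE 0.13) and 1.49 (SE 0.35), and in U937 HIST1H2AC fell by 0.41 with HIST1H2BC at 0.07 (SE 0.36, adjusted p = 0.901). Near-identical copies make several members uncertain: all 50-base windows of HIST1H4K are shared with HIST1H4J, and 83.7% of those of HIST1H2AJ and 62.3% of those of HIST1H2AI with each other, while 25 members share none.

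Among genes that control and process histone messages, more fell than rose in both pre-B lines. SLBP was at 290 to 298 CPM in NALM6 controls and 107 to 111 CPM with etoposide, a log2 change of -1.43 (SE 0.05, adjusted p = 2.56e-29), and at 107 to 112 CPM and then 43.7 to 51.9 CPM in 697, a log2 change of -1.18 (SE 0.08, adjusted p = 3.88e-10). In RAMOS, where the cluster genes fell, SLBP rose from between 269 and 272 CPM to between 449 and 456 CPM, a log2 change of 0.74 (SE 0.04). SLBP also rose in JURKAT by 0.54 (SE 0.07), in THP1 by 0.34 (SE 0.04) and in U937 by 0.33 (SE 0.05). NPAT did not pass in either pre-B line, at -0.13 in both, and rose in RAMOS by 1.11 (SE 0.05), in JURKAT by 0.50, in THP1 by 0.18 and in U937 by 0.86. CASP8AP2, which is needed for histone transcription at histone locus bodies, fell in NALM6 by 0.18 and in 697 by 0.51, and rose in the other lines by 0.47 to 1.21. CCNE2, the cyclin whose kinase activates NPAT, fell in NALM6 by 1.09 and in 697 by 0.96, and rose in RAMOS by 2.23 and in U937 by 1.51.

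**Figure D5:**
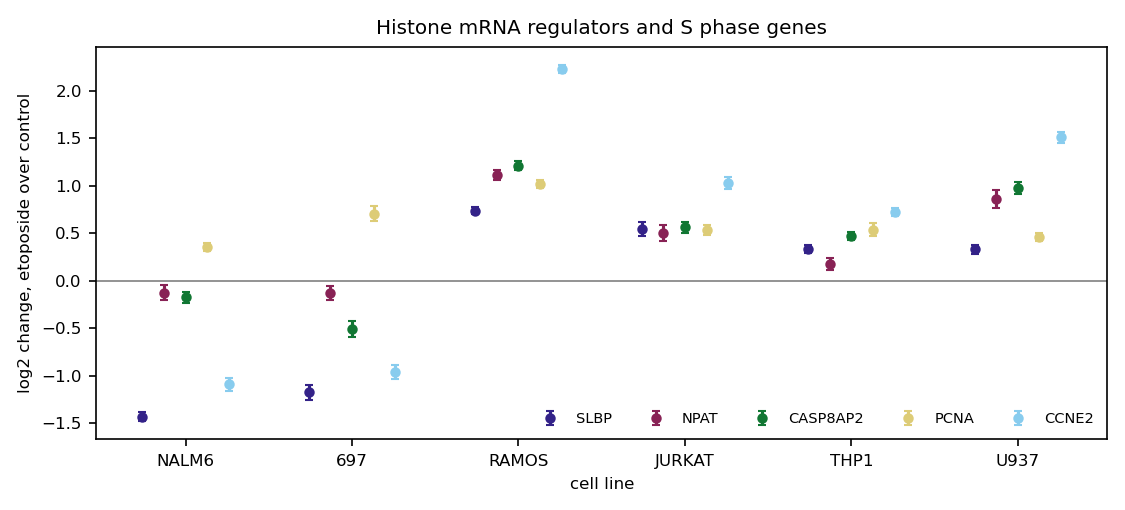
Log2 change with etoposide (points, with SE bars) of SLBP, NPAT, CASP8AP2, CCNE2 and the replication clamp gene PCNA in each line. SLBP and CCNE2 lie below 0 in NALM6 and 697 and above 0 in the other 4 lines, and PCNA lies above 0 in all 6.

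Counts over the lists below are read beside the shares of all genes that rose and fell, 41.3% and 40.3% in NALM6, 39.4% and 36.9% in 697, 34.2% and 35.5% in RAMOS, 6.71% and 6.27% in JURKAT, 14% and 17% in THP1, and 22.1% and 22.1% in U937. Over the whole list of 20 genes of histone transcription and 3′ end processing, 5 rose and 11 fell in NALM6, 4 and 13 in 697, 8 and 7 in RAMOS, 7 and 1 in JURKAT, 8 and 3 in THP1, and 11 and 5 in U937. Of 20 S phase genes, 6 rose and 13 fell in NALM6 and 1 rose and 18 fell in 697. In the other lines 18 rose and 2 fell in RAMOS, and 18, 19 and 15 rose and 0 fell in JURKAT, THP1 and U937. The 1 that rose in 697 was PCNA, by 0.70 (SE 0.08). FEN1, a flap nuclease of replication, fell there by 1.14 and rose in RAMOS by 1.09. RRM2, a subunit of ribonucleotide reductase, fell in 697 by 1.03 and rose in RAMOS by 0.96.

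Of 20 histone chaperone genes, of which 19 or 20 were tested in each line, 0 rose and 15 fell in NALM6, 0 rose and 19 fell in 697, and 10 rose and 5 fell in RAMOS. In JURKAT 5 rose and 1 fell, in THP1 6 and 4, and in U937 8 and 4. ASF1B, which hands new H3 and H4 to assembly factors, fell in 697 by 0.55 and rose in RAMOS by 1.3. CHAF1A, the large subunit of the assembly factor CAF-1, fell in 697 by 0.73 and rose in RAMOS by 0.94. Among 12 replacement histone genes, which lie outside the clusters, 9 to 11 were tested in each line. Of these, 3 rose and 4 fell in each pre-B line, and 4 rose and 2 fell in RAMOS. In JURKAT 0 rose and 3 fell, in THP1 3 rose and 2 fell, and in U937 2 rose and 5 fell. CENPA, the centromeric H3, fell in all 6 lines, by 1.42 to 2.20 on the log2 scale. H1FX rose in NALM6 by 1.43 (SE 0.05) and fell in U937 by 0.65 (SE 0.06), and H2AFZ fell in NALM6 by 0.72 and rose in RAMOS by 0.36.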

How the data were processed

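RNA from 34 samples of 6 cell lines had been extracted with Trizol, and the labels' protocols name the TruSeq RNA kit for the libraries. HISAT, HTSeq, DESeq2 and hg19 are named in the submitters' processing notes, and the sources used here do not give versions, the strand setting or the treatment of reads with several hits. The deposited files hold whole-number counts per gene symbol, 1 file per library, with no line for unassigned reads, so their share is unknown. The authors' deposited tables of fold changes were not used. With an unstranded count, reads of overlapping and antisense genes cannot be told apart, and dropping reads with several hits would lower members with copies.

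Counts were tested in R 4.3.3 within each line by the robust quasi-likelihood test of edgeR 4.0.16, two-sided, after filterByExpr (minimum count 10) and TMM scaling, with Benjamini-Hochberg adjustment over all genes tested and a call at an adjusted p under 0.05. Differences between lines were 5 contrasts in 1 fit of all 34 libraries. SE is the log2 change divided by the root of its F value. Class sums are CPM with no test. A group with 1 to 3 reads was given as a ratio with a 95% counting interval, and a group with 0 reads as a bound, taking 3 counts over the group as the floor; both cover counting error only. The fits were tested on simulated counts. Alternatives were DESeq2 1.42.0, other scalings, no filter, a replicate block, left-out libraries and other choices of members. Named members were the 4 highest of each class, up to 3 called members in each direction per line and per difference, SLBP, NPAT and CASP8AP2, pathway genes with the smallest adjusted p, head-to-head pairs and members with copies. ITGAM, ELANE, the SCARNA genes and the spliceosomal RNA genes were chosen after their values were seen. Members, lists and rules were chosen with earlier results of these data known. Sequences come from GENCODE v29 transcripts and RefSeq promoters, matched by symbol.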

Additional observations from a re-analysis of the deposited data

Results flagged for a closer look

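The etoposide effect on 18 member and comparison pairs differed between lines by a contrast in the fit of all 34 libraries, and these are the largest such differences in each direction (log2 units). Between the pre-B lines and the 4 others the effect differed by 4.63 for HIST2H2BF, 3.70 for HIST1H2BM and 3.63 for HIST1H1D. HIST1H2BM had 0 reads in THP1 with etoposide and HIST1H1D 0 in JURKAT with etoposide, so both values depend on the prior count. Both genes also reached the 0.5 CPM level in no control group and stood highest in etoposide-treated 697, so the choice favoured a higher effect there. Between 697 and NALM6 the effect differed by 3.05 for HIST1H3D, 2.89 for HIST1H2AK, 2.22 for HIST1H2AG and -2.99 for HIST1H2AH. For HIST1H2AK too, no control group reached the level and etoposide-treated 697 stood highest, so a larger effect in 697 was favoured by the choice. HIST1H2AH had 3 reads in NALM6 controls and 27 with etoposide, a ratio of 11.02 with a 95% counting interval of 3.39 to 56.8, and 28 and 22 reads in 697.

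Between RAMOS and JURKAT the effect differed by -6.85 for HIST1H2AI, -2.71 for HIST1H2BJ and -0.95 for HIST1H1C. HIST1H2AI had 25 and 2 reads in RAMOS and 0 and 4 in JURKAT, so the fitted value is no measure of size. Between THP1 and U937 it differed by 1.47 for HIST1H2AC, 1.42 for HIST1H2BD, -7.58 for HIST1H2BE and -5.30 for HIST1H2BM. HIST1H2BE had 10 and 0 reads in THP1 and 0 and 4 in U937, and HIST1H2BM had 10 and 0 in THP1. In THP1 both were at least 3.15-fold lower with etoposide. Between the myeloid lines and RAMOS with JURKAT it differed by 5.13 for HIST2H2AB, 3.83 for HIST1H3J, 3.69 for HIST1H1E and -0.45 for HIST1H2BK. HIST2H2AB had 0 reads in THP1 controls and 16 with etoposide, at least 5.64-fold higher. HIST1H1E had 1 and 9 reads in THP1 and 12 and 4 in JURKAT. HIST1H3J had 3 and 19 reads in THP1 and 17 and 2 in RAMOS, so its value too rests on few reads. Groups of 2 or 3 libraries were too small to test for single outlying libraries.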

How the results depend on the processing

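The class sums in NALM6, 697 and RAMOS kept their direction with library totals in place of TMM, the 1 other scaling run on sums. Upper-quartile scaling and library totals moved the median log2 change of all genes to 0.18 and 0.16 in NALM6 and to 0.21 and 0.14 in 697, far below the members' medians. Without the filter on low counts, 17 members rose in NALM6 and 15 fell in RAMOS, 3 fell in THP1, and the lower members became 0 for 697 minus NALM6 and 0 for THP1 minus U937. In the fit of all 34 libraries, 20 rose in NALM6, 18 fell in RAMOS, 6 rose and 3 fell in THP1, and 1 rose in U937. These 2 alternatives test more members. Fits with 1 library left out can change the number tested too, which in RAMOS was 9 with all libraries and 19 without etoposide 2. By DESeq2, 1 rose in U937. With members at 0.5 CPM over all 34 libraries, 21 rose in 697. With NALM6 alone as pre-B line 13 members were higher, and against JURKAT alone 17, both without a share of all genes. With library totals in place of TMM the log2 ratio was 1.63 for 697 H2B, -0.059 for U937 H1 and -0.20 for U937 H2B.

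With 1 library left out, the members that rose numbered 7 to 12 in NALM6, 39 to 41 in 697, 2 to 4 in THP1 and 1 to 2 in U937, those that fell 4 to 13 in RAMOS and 1 to 4 in U937, and all genes called 1095 (without etoposide 1) to 1582 in JURKAT, against 1806. Differences ranged from 22 to 29 for pre-B minus others, 4 to 7 higher and 0 to 1 lower for 697 minus NALM6, 2 to 4 lower for RAMOS minus JURKAT, 1 to 2 higher and 0 to 2 lower for THP1 minus U937, and 8 to 12 higher for myeloid minus RAMOS and JURKAT. Replicate numbers did not pair the samples: 1 of 16 same-numbered pairs correlated over 0.1 (range -0.296 to 0.114). Numbers are those of the sample titles, and the 2 etoposide libraries of 697 carry other numbers in the deposited files, so its pairs and its block count rest on the titles. With a replicate block, 9 rose in NALM6, 39 in 697, 3 in THP1 and 1 in U937, 7 fell in RAMOS and 4 in U937, 0 were lower for 697 minus NALM6, and 1 was higher and 0 lower for THP1 minus U937.

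Of 1509 values of single members under alternatives, 1394 kept direction and side of the threshold, 86 lost and 9 gained a call, and 20 changed sign, none of them called in the report. HIST1H2BK in NALM6 was at -0.0371 without the filter and -0.0165 in the fit of all libraries, and HIST2H2BE in RAMOS at -0.0152 with the block. With 1 library left out, HIST1H2BK ranged from -0.0941 to 0.131 in NALM6 and from -0.197 to 0.123 in JURKAT, HIST2H2BE in RAMOS from -0.245 to 0.312, and HIST1H1C in THP1 from -0.0189 to 0.21. In JURKAT HIST1H2AC ranged from -0.185 to 0.168, HIST1H4H from -0.0943 to 0.29 and HIST3H2A from -0.0933 to 0.397. In U937 HIST1H2BD ranged from -0.318 to 0.0628, HIST1H3D from -0.0845 to 0.648, HIST1H4H from -0.782 to 0.0917, and the median over members tested from -0.105 to 0.172, with -0.134 by DESeq2. The cause was not tested. Too few reads left untested 41 members each in NALM6 and THP1, 43 each in RAMOS and JURKAT, 25 in U937 and 6 in 697.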
